A study of Rattus norvegicus with 10 samples.

Results

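The tryptophan-kynurenine pathway was examined in the livers of 5 male Wistar rats given diethylnitrosamine and thioacetamide (DEN/TAA) and of 5 control rats given vehicle only. Its members are 8 genes of the route that leads from tryptophan to NAD: Tdo2, Afmid, Kmo, Kynu, Haao, Acmsd, Aadat and Qprt. They were found by matching the RefSeq transcript named for each array probe to the current rat gene symbol. Of the 8 members, 7 had a named probe, 1 probe each, and Afmid, the formamidase that follows Tdo2, had none named here. All 7 passed the filter, which asked for a signal well above background on 5 or more of 10 arrays, and stand among 6855 genes tested of 13832 named on the array.

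DEN/TAA rats received 1 intraperitoneal injection of diethylnitrosamine, 200 mg/kg, at 6 weeks of age. Thioacetamide injections, 200 mg/kg intraperitoneally, began 2 weeks later with 2 injections per week for 3 weeks followed by 1 week without, repeated. The series describes this protocol as a rat model of liver cancer on a cirrhotic background. Diethylnitrosamine alkylates DNA, and thioacetamide is bioactivated in hepatocytes and scars the liver. The labels give 23 weeks as the length of treatment and as the age of every rat, including controls, so the exact duration is not settled here. RNA came from frozen liver, and the labels mention no separation of lesions from other parenchyma.

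In mammals the liver degrades most dietary tryptophan through this pathway. Tdo2 opens the indole ring, Afmid yields kynurenine, and kynurenine is then hydroxylated by Kmo, cleaved by Kynu or converted to kynurenic acid by aminotransferases such as Aadat. Kmo and Kynu lead on to 3-hydroxyanthranilate, which Haao opens to an unstable semialdehyde. The semialdehyde either closes to quinolinate, which Qprt carries into NAD synthesis, or is diverted to oxidation by Acmsd.

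The sequences before the start of Tdo2, Kmo, Kynu and Haao are given here with the motif letters found in them. These 4 enzymes of the route to quinolinate all fell in DEN/TAA livers. Each sequence is the 250 bases before the RefSeq start in the rat assembly GRCr8, written 5′ to 3′ on the gene's own strand. Every match to a searched motif is in capitals.
Tdo2, chr2:169585587-169585836, minus strand: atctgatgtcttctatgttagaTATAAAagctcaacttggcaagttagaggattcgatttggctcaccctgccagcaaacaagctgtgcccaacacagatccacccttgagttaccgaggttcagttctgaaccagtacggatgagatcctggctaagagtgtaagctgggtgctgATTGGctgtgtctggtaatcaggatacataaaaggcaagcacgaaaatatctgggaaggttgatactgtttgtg
Kmo, chr13:90089271-90089520, plus strand: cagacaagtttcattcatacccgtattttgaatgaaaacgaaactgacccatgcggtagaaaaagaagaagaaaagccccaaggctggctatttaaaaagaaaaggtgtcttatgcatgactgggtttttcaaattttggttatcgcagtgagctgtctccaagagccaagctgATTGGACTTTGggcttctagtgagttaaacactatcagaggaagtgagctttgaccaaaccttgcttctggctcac
Kynu, chr3:48188036-48188285, plus strand: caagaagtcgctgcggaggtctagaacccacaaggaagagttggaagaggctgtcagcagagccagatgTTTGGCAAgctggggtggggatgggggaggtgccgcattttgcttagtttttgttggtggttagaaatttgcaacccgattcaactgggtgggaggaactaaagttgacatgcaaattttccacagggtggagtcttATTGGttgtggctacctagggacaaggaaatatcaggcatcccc
Haao, chr6:16598075-16598324, plus strand: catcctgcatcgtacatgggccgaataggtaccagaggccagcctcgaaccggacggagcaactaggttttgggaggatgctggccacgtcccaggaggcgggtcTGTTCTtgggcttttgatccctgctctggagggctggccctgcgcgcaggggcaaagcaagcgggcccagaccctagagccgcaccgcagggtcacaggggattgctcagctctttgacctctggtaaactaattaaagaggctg

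In both orientations, 6 motifs were searched in these windows for the 7 members with a RefSeq promoter entry (all but Acmsd). The letters CCAAT were present in 4 windows, those of Tdo2, Kmo, Kynu and Aadat, each time as the reverse complement ATTGG. They occur in 34.0% of the 33469 promoter windows of the same length. CAAAGTCCA, a motif of the liver factor HNF4, was present only in Kmo among the members, reversed, and occurs in 0.338% of all windows. In Kmo it shares 3 bases with the CCAAT match, and lies 74 bases before the start. TTGCNNAA, a C/EBP motif, was found in Kynu and in 9.22% of all windows. AGAACA, part of the glucocorticoid receptor motif, was found in Haao and in 17.5% of all windows, and the TATA box letters TATAAA in Tdo2, 228 bases before the start, and in 12.9%. The HNF1 letters GTTAAT were in none of the 7 windows and in 6.45% of all windows. These matches describe letters and do not locate binding sites.

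Each array carried RNA from the liver of 1 rat, and all levels below are log2 processed spot signals relative to the 75th percentile of the same array. That percentile was taken over the 6229 probes well above background on all 10 arrays, so a negative level is a signal below it. Spots well above background made up 40.6% ± 4.42 on DEN/TAA arrays and 25.5% ± 6.21 on control arrays (SD, n = 5 each), with control replicate 5 lowest at 16.5%. No spot was saturated. The arrays were on 3 slides, each holding both groups. Slide 2 held only replicate 3 of the control rats, and slide 3 only replicate 5 of the DEN/TAA rats. Because DEN/TAA arrays were brighter, the centring matters: the median difference over all tested genes was 0.33 here. It was -0.28 with normexp background correction, 0.02 with the percentile over all probes, 0.18 with quantile normalisation, 0.99 with spike-in scaling and 0.08 in the authors' table. The mean level of the 8 hepatocyte markers lay between 2.44 and 2.67 in DEN/TAA livers and between 3.32 and 3.74 in control livers, with Alb and Ttr high and Hnf4a low, above background on 4 of 5 control arrays.

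Most of the pathway was lower in DEN/TAA livers. Of the 7 measured members, 6 fell (Tdo2, Kmo, Kynu, Haao, Aadat and Qprt) and none rose (limma, Benjamini-Hochberg over 6855 genes, adjusted p under 0.05), while Acmsd did not pass. Over all genes tested, 16.3% fell and 39.2% rose, 55.5% in either direction. The median log2 difference of the 7 members was -1.49, against 0.33 over all genes tested. The share and the median over all genes depended on the filter. With the filter on all 10 arrays 26.5% of genes fell and the median was 0.10. With no filter 41.9% of 13832 genes fell and the median was -0.50, and the 6 members fell in both settings. In the same 6 members the groups did not overlap, against 11.4% of all tested genes with DEN/TAA livers wholly below control and 39.5% without overlap in either direction. The members that fell were lower within each of the 3 slides, and 5 of the 6 were lower by at least 2-fold. Values within slide 3 rest on DEN/TAA replicate 5 alone in that group, and values within slide 2 on control replicate 3. Bulk liver RNA cannot tell fewer cells of a type apart from less RNA per cell.

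**Figure D1:**
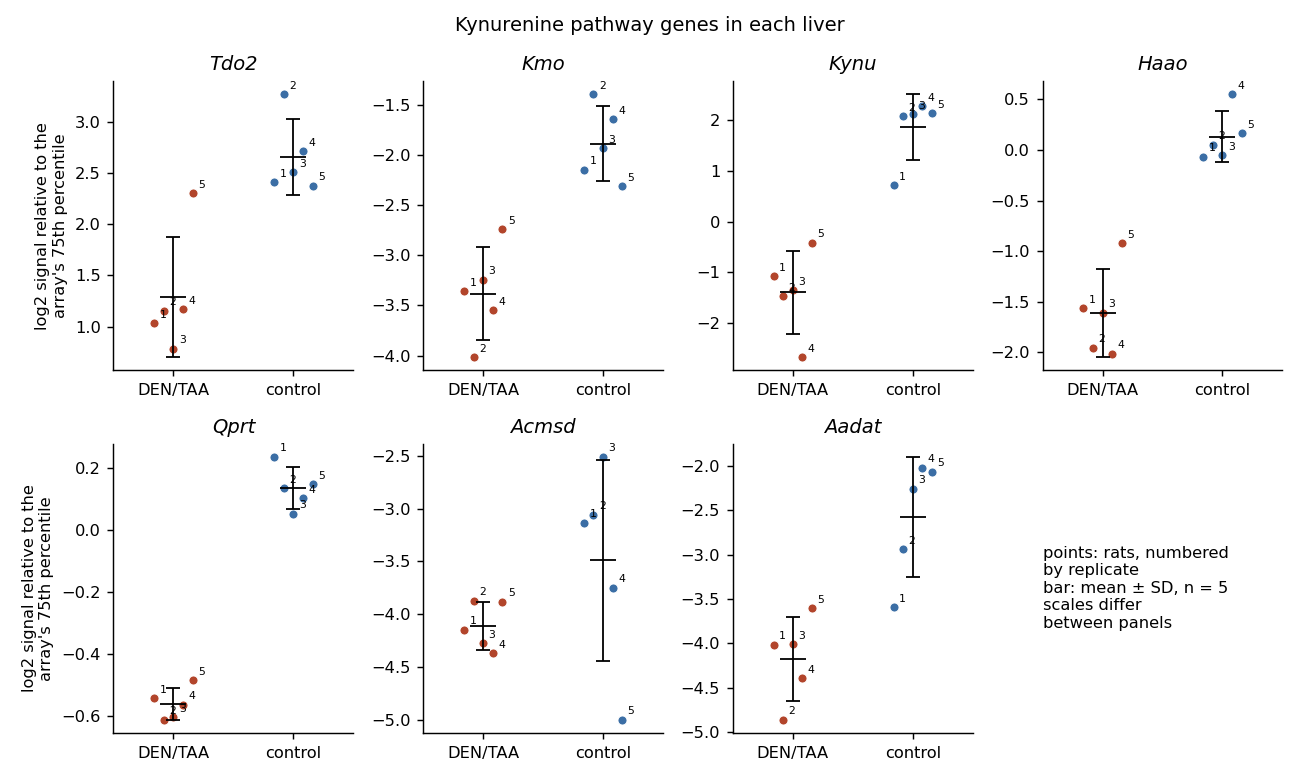
Level of each of the 7 measured members in every rat, as log2 signal relative to the array's 75th percentile, with 1 panel per gene, DEN/TAA left and control right. Points are rats with their replicate numbers, bars the mean and the SD of 5 rats. In 6 panels the groups do not overlap, and in Acmsd they do.

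Tdo2, tryptophan 2,3-dioxygenase (probe A_42_P800916, transcript NM_022403), catalyses the entry step. Its levels were 1.03, 1.15, 0.78, 1.17 and 2.30 in DEN/TAA replicates 1 to 5, against 2.41, 3.28, 2.51, 2.72 and 2.38 in control replicates 1 to 5. DEN/TAA replicate 5 stood near the lowest control rat, 0.075 below it, while the other DEN/TAA rats were more than 1 unit below control. The means were 1.29 ± 0.59 in DEN/TAA livers and 2.66 ± 0.37 in control livers (SD, n = 5 each). Tdo2 fell by 1.37 on the log2 scale (SE 0.28, limma adjusted p = 0.00165), to 38.7% of the control level. Within slides 1, 2 and 3 the difference was -1.75, -1.54 and -0.24. With spike-in scaling it was -0.71 and no longer passed (limma adjusted p = 0.0852).

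Kmo, kynurenine 3-monooxygenase (A_44_P496572, NM_021593), hydroxylates kynurenine in the outer mitochondrial membrane. Its levels were -3.36, -4.02, -3.25, -3.55 and -2.74 in DEN/TAA replicates 1 to 5, against -2.15, -1.39, -1.94, -1.64 and -2.31 in control replicates 1 to 5. No DEN/TAA rat reached the lowest control rat, which was control replicate 5. The means were -3.38 ± 0.46 in DEN/TAA livers and -1.89 ± 0.37 in control livers (SD, n = 5 each). Kmo fell by 1.49 (SE 0.25, limma adjusted p = 0.000385), to 35.5% of the control level. Within slides the difference was -1.92, -1.46 and -0.76, and with spike-in scaling it was -0.83.

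Kynu, kynureninase (A_42_P703548, NM_053902), cleaves kynurenine and 3-hydroxykynurenine with vitamin B6 as cofactor, and showed the largest fall among the members. Its levels were -1.07, -1.47, -1.35, -2.66 and -0.42 in DEN/TAA replicates 1 to 5, against 0.71, 2.07, 2.11, 2.27 and 2.12 in control replicates 1 to 5. Control replicate 1 was the low control rat, and still lay 1.13 above the highest DEN/TAA rat. The means were -1.39 ± 0.82 in DEN/TAA livers and 1.86 ± 0.65 in control livers (SD, n = 5 each). Kynu fell by 3.25 (SE 0.40, 95% interval -4.14 to -2.37, limma adjusted p = 4.92e-05), to 10.5% of the control level. Only 0.686% of all tested genes had a more negative difference. Within slides it was -2.66, -4.12 and -2.61.

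Haao, 3-hydroxyanthranilate 3,4-dioxygenase (A_44_P304387, NM_020076), opens the second ring. Its levels were -1.56, -1.96, -1.61, -2.01 and -0.92 in DEN/TAA replicates 1 to 5, against -0.065, 0.050, -0.052, 0.55 and 0.16 in control replicates 1 to 5. All DEN/TAA rats lay at least 0.86 below the lowest control rat. The means were -1.61 ± 0.44 in DEN/TAA livers and 0.13 ± 0.25 in control livers (SD, n = 5 each). Haao fell by 1.74 (SE 0.22, limma adjusted p = 5.39e-05), to 29.9% of the control level. Within slides the difference was -1.75, -1.76 and -1.28, and with spike-in scaling it was -1.08.

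Aadat, an aminotransferase that forms kynurenic acid and also acts on aminoadipate (A_44_P991924, NM_017193), lies on the side branch. Its levels were -4.01, -4.86, -4.01, -4.40 and -3.60 in DEN/TAA replicates 1 to 5, against -3.59, -2.94, -2.26, -2.02 and -2.07 in control replicates 1 to 5. DEN/TAA replicate 5 and control replicate 1 nearly met, 0.0069 apart. The means were -4.18 ± 0.47 in DEN/TAA livers and -2.58 ± 0.68 in control livers (SD, n = 5 each). Aadat fell by 1.60 (SE 0.33, limma adjusted p = 0.0016), to 33.0% of the control level. Within slides the difference was -1.17, -1.94 and -1.55. It was -0.94 with spike-in scaling and -0.88 in the authors' table.

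Acmsd, the decarboxylase that draws the semialdehyde away from NAD synthesis (A_43_P13249, NM_134372), did not pass the test. Its levels were -4.15, -3.87, -4.28, -4.37 and -3.88 in DEN/TAA replicates 1 to 5, against -3.14, -3.06, -2.51, -3.75 and -5.00 in control replicates 1 to 5. The DEN/TAA rats were close together and the control rats spread widely, with control replicate 5 below every DEN/TAA rat. On that control array the probe was not well above background. The difference was -0.62 (SE 0.38, 95% interval -1.45 to 0.21, limma adjusted p = 0.188). Without control replicate 5 it was -0.996 (limma adjusted p = 0.00423), and with that array raised to its background floor -0.87 (adjusted p = 0.0118). Within slides it was -0.91, -1.81 and 0.49, and with spike-in scaling 0.04.

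Qprt, quinolinate phosphoribosyltransferase (A_42_P505241, NM_001009646), makes the nicotinate mononucleotide from which NAD is built. Its levels were -0.54, -0.61, -0.60, -0.56 and -0.49 in DEN/TAA replicates 1 to 5, against 0.24, 0.13, 0.052, 0.10 and 0.15 in control replicates 1 to 5. The rats of each group were nearly alike and the groups were separated by 0.54. The means were -0.56 ± 0.051 in DEN/TAA livers and 0.13 ± 0.067 in control livers (SD, n = 5 each). Qprt fell by 0.70 (SE 0.12, limma adjusted p = 0.000468), to 61.7% of the control level, the smallest fall of the 6. Within slides the difference was -0.76, -0.64 and -0.61. With spike-in scaling it was -0.04 (limma adjusted p = 0.902), where the median of all genes was 0.99.

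**Figure D2:**
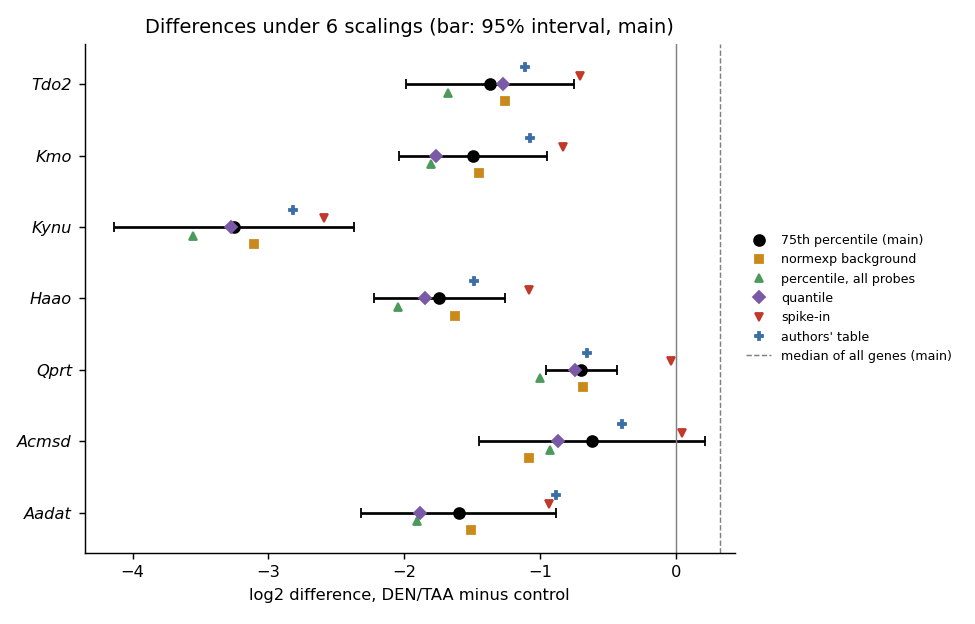
Log2 difference, DEN/TAA minus control, of each measured member under the reported scaling and the 5 other ways of bringing the arrays to a common level. Kynu lies between -3.56 and -2.59 throughout, while Qprt and Acmsd come close to 0 with spike-in scaling.

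Set against the median of all tested genes under the same scaling, every one of the 7 members was lower under each of the 6 scalings. The reported scaling, the percentile over all probes and spike-in scaling only shift whole arrays. They therefore give the same value here by construction and are not separate checks. Kynu lay between 3.58 and 2.82 below that median, Haao between 2.07 and 1.35, and Kmo between 1.94 and 1.15. For Aadat the range was 2.06 to 0.97, for Tdo2 1.70 to 0.98, for Acmsd 1.05 to 0.48, and for Qprt 1.02 to 0.41. The median also depends on the filter. With the reported scaling and no filter, the difference relative to the median was -0.12 for Acmsd, -0.20 for Qprt, -0.87 for Tdo2 and -2.76 for Kynu.

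**Figure D3:**
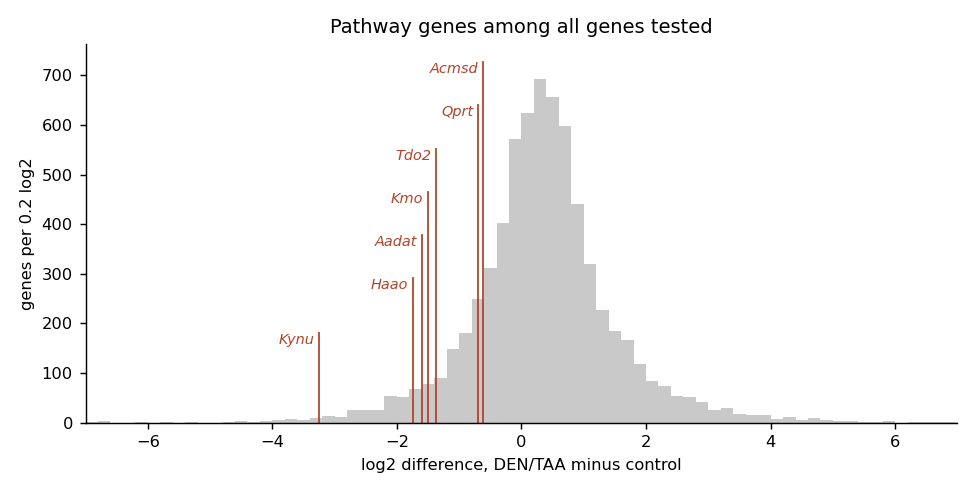
Distribution of the log2 difference, DEN/TAA minus control, over the 6855 tested genes, with the 7 measured members marked. All members lie left of the median of all genes, 0.33, and Kynu lies farthest left.

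DEN/TAA replicate 5 was the highest of its group in 6 of the 7 members, which are the 6 that fell. The same rat was the highest of its group for 50.8% of the 1116 genes that fell, so the members shared this with many other genes. The lowest DEN/TAA rat was replicate 2 for 3 members, replicate 4 for 3 and replicate 3 for 1. Without DEN/TAA replicate 5 the difference was -1.62 for Tdo2 and -1.65 for Kmo.

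Enzymes on the arms of a branch point were compared within each array, as a difference between log2 levels of the same rat. The value of such a difference has no meaning by itself, since the probes differ, but its change between groups does not depend on shifts of whole arrays. Kynu minus Kmo was 2.29, 2.55, 1.90, 0.88 and 2.33 in DEN/TAA replicates 1 to 5, against 2.86, 3.46, 4.05, 3.92 and 4.44 in control replicates 1 to 5. The groups did not overlap, and Kynu fell by 1.76 more than Kmo. The exact permutation test over all assignments of 5 of the 10 rats gave p = 0.00794, the smallest it can give, and 0.0238 after adjustment over the 3 differences tested. Within slides the change was -0.74, -2.66 and -1.85, and with permutation inside slides it was -1.61 (adjusted p = 0.0556, exact).

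Aadat and Kmo both act on kynurenine, and their within-array difference was -0.79 ± 0.087 in DEN/TAA livers and -0.69 ± 0.78 in control livers (SD, n = 5 each). The change of -0.10 was not resolved (exact permutation p = 0.786). Qprt minus Acmsd, the fork between NAD synthesis and oxidation, was 3.55 ± 0.22 in DEN/TAA livers and 3.63 ± 0.97 in control livers (SD, n = 5 each). The change of -0.08 was not resolved either (exact permutation p = 0.881), and control rats ranged from 2.56 to 5.15.

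**Figure D4:**
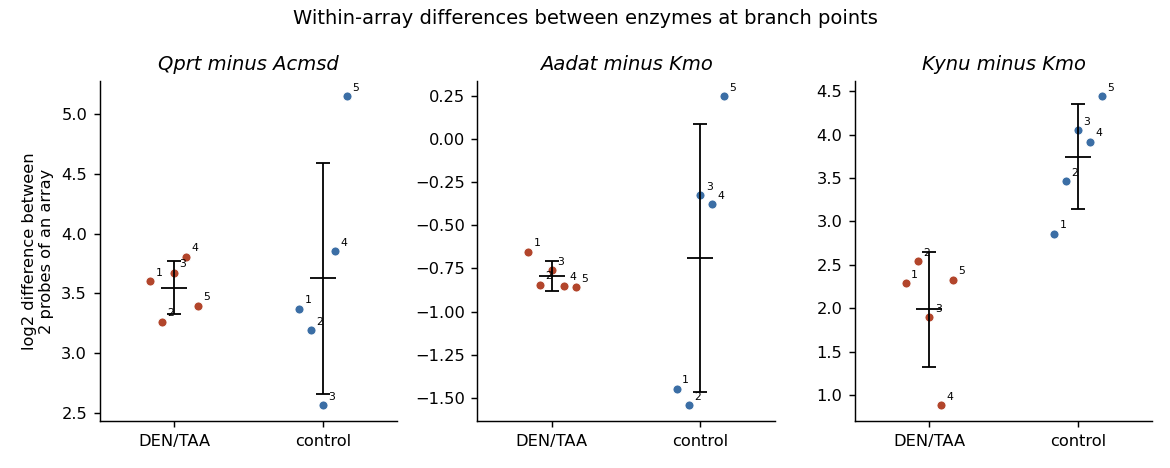
Within-array difference of log2 levels for enzymes at 3 branch points, DEN/TAA left and control right in each panel. Points are rats and bars the mean and SD of 5 rats, and only Kynu minus Kmo separates the groups.

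Other enzymes of tryptophan and kynurenine breakdown were also mostly lower. Of 16 listed, 13 were named on the array and 9 were tested, of which 5 fell, 1 rose and 3 did not pass, with a median of -0.65. Dhtkd1, a subunit of the oxoadipate dehydrogenase further down the oxidative arm, fell by 1.97 (SE 0.35, limma adjusted p = 0.000604). Kyat1, another kynurenine aminotransferase, and Aldh8a1, the dehydrogenase that follows Acmsd, fell by 1.18 and 1.16. Gcdh, glutaryl-CoA dehydrogenase, fell by 1.34, and Got2, a mitochondrial aminotransferase, by 0.51 (limma adjusted p = 0.0425). The call of Got2 was lost without DEN/TAA replicate 1, 2, 3 or 4 or control replicate 1, 3 or 4, and its difference was 0.15 with spike-in scaling. Kyat1 (-0.52), Aldh8a1 (-0.50) and Gcdh (-0.67) did not pass with spike-in scaling either. Wars1, the tryptophanyl-tRNA synthetase, rose by 0.60 (limma adjusted p = 0.0352), but its other probe differed by 0.05 and did not pass (adjusted p = 0.832). Under the other scalings Wars1 passed only with spike-in scaling, and was 0.16 with normexp, 0.29 with the percentile over all probes, 0.24 in the authors' table and 0.31 with quantile normalisation. Its call was also lost with no filter, with the mean over probes, with the slide block, and without DEN/TAA replicate 1, 2, 4 or 5 or control replicate 2 or 5. Ido1, the other enzyme that opens the indole ring, was well above background on too few arrays to be tested.

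Genes of NAD synthesis and salvage moved in both directions. Of 12 listed, 7 were tested, of which 3 fell, 1 rose and 3 did not pass, with a median of -0.13. Naprt, which starts NAD synthesis from nicotinic acid, averaged -1.16 ± 0.11 in DEN/TAA livers and 0.30 ± 0.40 in control livers (SD, n = 5 each), and fell by 1.46 (limma adjusted p = 7.78e-05). Nnmt, which methylates nicotinamide, fell by 2.26, and Nadk2, the mitochondrial NAD kinase, fell by 0.85. Nadk2 lost its call without DEN/TAA replicate 2 (-0.76) or 4 (-0.73) and with spike-in scaling (-0.19), and its other probes, at -0.46 and -0.35, did not pass. Aox1, an oxidase that acts on methylated nicotinamide among other substrates, rose by 1.12 (limma adjusted p = 0.00151). Nampt, the first enzyme of nicotinamide salvage, differed by 0.44 and did not pass (limma adjusted p = 0.0939), but did without control replicate 1 (0.62, adjusted p = 0.00766). Its other probe went the opposite way, at -0.36 (limma adjusted p = 0.133). Among NAD consumers 7 of 12 were tested, with 1 higher (Bst1), 1 lower (Sirt3, -0.72) and 5 not past, at a median of 0.13. Bst1 was not well above background on any control array, and its difference of 1.64 turned to -0.50 with normexp. Sirt3, a mitochondrial deacetylase, was -0.06 with spike-in scaling and did not pass.

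Transporters of tryptophan and kynurenine were measured for 3 of 8 listed genes. Slc3a2, the heavy chain shared by amino acid exchangers, was 0.21 ± 0.05 in DEN/TAA livers (4 measured arrays, 1 spot left out as an outlier) and -1.54 ± 0.32 in control livers (SD, n = 5), a rise of 1.75 (limma adjusted p = 2.54e-05). Slc43a2, a carrier of large neutral amino acids, rose by 1.66, and was 0.59 with normexp, which did not pass (limma adjusted p = 0.147). Slc16a10, an aromatic amino acid carrier, fell by 2.09 (limma adjusted p = 0.000366), with a signal above background in 3 of 5 DEN/TAA livers and 4 of 5 control livers, and was -0.36 in the authors' table, where it also passed.

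Kynurenine and kynurenic acid are ligands of the aryl hydrocarbon receptor, and 3 of 9 listed genes of that receptor and its targets were tested. Cyp1a2 averaged -2.50 ± 0.52 in DEN/TAA livers and 1.93 ± 0.76 in control livers (SD, n = 5 each), and fell by 4.43 (limma adjusted p = 2.57e-06). Aldh3a1 rose by 6.84 and Nqo1, a quinone reductase, by 3.67, with the probes above background on 3 and 1 of 5 control arrays. In the authors' table, which keeps the background, they were 4.68 and 1.63, and both passed there too. Both are induced by other factors as well. Cyp1a1 and Cyp1b1 were above background on too few arrays to be tested.

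Of 10 listed genes that control Tdo2 or respond to glucocorticoids in liver, 9 were tested, of which 4 fell, none rose and 5 did not pass, with a median of -0.74. Nr3c1, the glucocorticoid receptor, fell by 1.07 (limma adjusted p = 0.000623). Cebpa and Hnf4a, transcription factors of hepatocytes, fell by 1.75 and 0.99, and Pck1, an enzyme of glucose production, fell by 2.42. Tat, another glucocorticoid-induced enzyme, differed by -0.74 and did not pass (limma adjusted p = 0.197), while without control replicate 5 it was -1.19 (adjusted p = 0.00479). Tdo2 carries heme, and among heme genes Hmox1, heme oxygenase, rose by 2.63 (limma adjusted p = 0.000412), while Alas1, which starts heme synthesis, differed by 0.51 and did not pass (adjusted p = 0.0905), although it did with spike-in scaling (1.17), in the authors' table (0.75) and with the slide block (0.59). With spike-in scaling Nr3c1 was -0.41 and Hnf4a -0.33, and neither passed (limma adjusted p = 0.12 and 0.306). The other probes of Nr3c1 (-0.92) and Hnf4a (-0.70) did not pass.

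**Figure D5:**
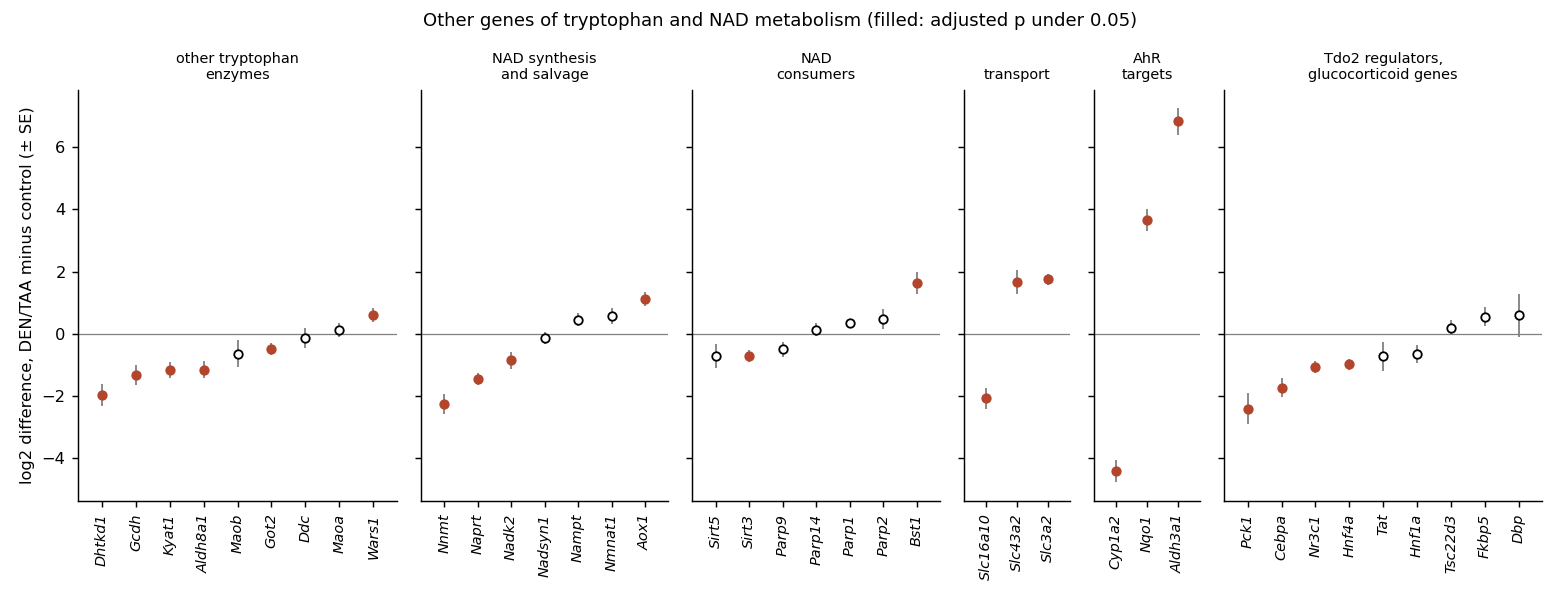
Log2 difference, DEN/TAA minus control, of other pathway genes tested, in 6 lists, with filled and open points for genes that passed the test and genes that did not, and lines of ± SE. Genes of tryptophan breakdown lie mostly below 0, while NAD genes lie on both sides.

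Cell type markers also differed between the groups. Of 8 hepatocyte markers, 7 fell and 1 did not pass (median -0.96), and under the 6 scalings between 1 and 7 fell. Ttr, transthyretin, fell by 2.03, Serpina1, alpha-1 antitrypsin, by 1.13 and Alb, albumin, by 0.92, while Apoa1 differed by 0.28 and did not pass. Alb was -0.26 with spike-in scaling, -0.15 in the authors' table and 0.15 with quantile normalisation, and passed in none of these. Apoa1 passed as higher in the same 3, at 0.94, 0.69 and 0.56. Serpina1 did not pass with spike-in scaling (-0.47) or quantile normalisation (-0.23). The difference of Kynu, -3.25, lay below that of each of the 8 hepatocyte markers, but this gap was not tested. All other measured members, from Haao (-1.74) to Acmsd (-0.62), lay within the range of these markers, from Ttr (-2.03) to Apoa1 (0.28). Of 10 macrophage markers, 8 rose, 1 fell (Cd14) and 1 did not pass, and their mean level lay between -1.98 and -1.55 in DEN/TAA livers and between -4.40 and -3.17 in control livers. Of 7 stellate cell and myofibroblast markers, 5 rose, with mean levels of -2.45 to -1.81 in DEN/TAA livers and -4.40 to -3.98 in control livers. Col1a1 did not pass with the probe used for it (0.60, limma adjusted p = 0.251). Its other probe rose by 3.98 (limma adjusted p = 3.2e-07). Bile duct markers rose in 3 of 3, with mean levels of -2.86 to -1.82 in DEN/TAA livers and -5.97 to -5.09 in control livers. Their part in the fall of the pathway was not tested.

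The tested genes whose profile over the 10 arrays was nearest to each member, by root mean square difference of centred log2 values, were named for all 7 members. Haao was nearest to Ghr, the growth hormone receptor (0.123), and Fah, the last enzyme of tyrosine breakdown (0.143). Aadat was nearest to Pygl, liver glycogen phosphorylase (0.129), and Atrn (0.223). Qprt was nearest to Tmbim6 (0.0767) and Tmem203 (0.108), and Kmo to Uox, urate oxidase (0.237), and Them7 (0.242). Tdo2 lay nearest to Il1rap (0.244) and Nags, which makes the activator of the urea cycle (0.248), Kynu to Gckr, the glucokinase regulator (0.286), and Tymp (0.297), and Acmsd to Iyd (0.309) and Atl2 (0.334). Between members, the nearest pair was Kmo and Haao (0.301), and Kynu lay farthest from its nearest member, Haao (0.89). These distances include the difference between groups, -3.25 for Kynu and -1.74 for Haao, so they are not an observation separate from it.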

How the data were processed

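Liver RNA of 10 rats was measured on 1-colour Agilent whole rat genome arrays, 1 per rat, with 150 ng of RNA. Per the file headers, Agilent Feature Extraction 11.5.1.1 made the scanner files (the submitters' processing notes name 15.5). The processed intensity in these deposited scanner files is background-subtracted, but not scaled between arrays. The authors' separate deposited table holds log2 values, without background subtraction, in the rank order of the raw median signal, with column medians near 8.59. Its direction is known, its centring only by these medians, and no source used here says how it was made.

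Control and outlier-flagged spots were left out and log2 signals were set relative to the array's 75th percentile over the detected probes. Of 41012 probes, 17502 had 1 symbol, 0 several and 23510 none through RefSeq (GRCr8). A gene was its passing probe with the highest mean. Tests were limma 3.58.1 in R 4.3.3 (two-sided, no covariates), and two-sided exact permutation tests in Python 3.11.15 with scipy 1.17.1. The number of arrays limits the precision. The labels do not say how the rats were housed or drawn. The p-values set group differences against variation between single rats, and take no account of shared housing.

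Members and lists were chosen with earlier results of these data known. Named were all members, per pathway list up to 3 genes each way by adjusted p, per marker list up to 2, and per member 2 nearest profiles, of which 1 pathway gene is not reported here. Gcdh, Got2, Pck1, Alas1, Apoa1, Alb and the genes that did not pass were added after their values were seen. Alternatives were normexp (offset 50, on median signal, as the files hold no mean signal), other scalings, filters, probe rules, blocks, weights and leaving out each rat. Same-numbered rats were not treated as pairs. The correlations of their deviations were 0.0862, 0.1, 0.205, -0.218 and 0.112, which cannot show whether rats were paired by design.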

Additional observations from a re-analysis of the deposited data

Results flagged for a closer look

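In 2 of the 20 groups of 5 rats examined, 1 rat stood far from the others by Dixon's test, which chance alone gives in about 1 in 20 groups. Tdo2 was 2.30 in DEN/TAA replicate 5, with the next highest DEN/TAA rat at 1.17, a gap of 0.747 of the group's range. Kynu was 0.71 in control replicate 1, with the next lowest control rat at 2.07, a gap of 0.87 of the range. Without DEN/TAA replicate 5, Tdo2 differed by -1.62, and without control replicate 1, Kynu differed by -3.54.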

How the results depend on the processing

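Of the 7 members, 6 fell under most alternatives, 4 fell with spike-in scaling, and leaving out each rat in turn gave 6 to 7. Kmo, Kynu, Haao and Aadat kept their direction and their side of the threshold in all 26 alternatives of the fit across all genes. Not all of these could change the direction. Each member has 1 probe, so the probe rules and filters left its difference as it was, as did the replicate block, and only the adjusted p could move. Tdo2 and Qprt lost the call only with spike-in scaling, at -0.71 and -0.035. Acmsd passed with normexp (-1.08), array weights (-0.93), without the 2 dimmest control arrays (-1.003), without control replicate 5 (-0.996) and with undetected values raised to the floor (-0.87). This last alternative, and the quantile and slide-block settings for the within-array differences, were chosen after seeing the data. Leaving out each rat gave -0.996 to -0.37 for Acmsd, which could not be tested with the filter on all 10 arrays. Within slide 3 the difference was -0.24 for Tdo2, -0.76 for Kmo, -1.28 for Haao, -0.61 for Qprt and 0.49 for Acmsd, and within slide 2 it was -4.12 for Kynu and -1.81 for Acmsd. Kynu minus Kmo changed by -1.82 without the 2 dimmest controls (exact adjusted p = 0.107), by -1.61 with the slide block (exact adjusted p = 0.0556) and by -1.76 with the replicate block (exact adjusted p = 0.188). The smallest unadjusted p of these 3 designs was 0.0357, 0.0185 and 0.0625. Within slides 1 and 2 its change was -0.74 and -2.66, that of Qprt minus Acmsd was 1.18 and -1.10 in slides 2 and 3, and that of Aadat minus Kmo was 0.75 in slide 1. Over all genes, 2689 rose and 1116 fell, 70.7% of calls being higher. With normexp 883 rose and 1950 fell (31.2% higher), with the percentile over all probes 1617 rose (50.3% higher), and with spike-in scaling 4451 rose and 396 fell (91.8% higher). Quantile normalisation had 58.9% of calls higher, and the values the authors deposited had 60.8%. The filter on all 10 arrays left 1154 higher and 944 lower of 3568 genes. With no filter 2594 were higher and 5801 lower of 13832 genes. Of the other pathway genes 8 rose and 16 fell. With normexp 5 rose, with spike-in scaling 16 rose and 7 fell, and with the filter on all 10 arrays 3 rose. Of the cell markers 22 rose and 9 fell. With normexp 10 rose, with the filter on all 10 arrays 5 rose, and 1, 5 and 14 fell with spike-in scaling, the authors' table and no filter. The replicate block, which treats same-numbered rats as pairs, gave 2685 higher and 1121 lower genes. Reversed were Bst1 (-0.50 with normexp, -0.19 at the floor), Zap70 (-0.28) and Cd3g (-0.28) with normexp, and Tmem203 (0.080) and Got2 (0.15) with spike-in scaling, and Alb (0.15) with quantile normalisation. The cause of these changes was not tested. Control arrays were dimmer, which limits genes near background, Acmsd among them.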

Other observations

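Markers of cells other than hepatocytes included several genes that were not well above background in any control liver. Trem2, a macrophage lipid receptor, was at least 5.33-fold higher in DEN/TAA livers. Krt19, a biliary keratin, was higher by at least 9.93-fold. These bounds set the DEN/TAA mean against the control arrays' background floor, hold for the reported scaling and background subtraction, and come with limma's adjusted p of 1.77e-06 and 8.24e-07. In the authors' table, which keeps the background, the log2 difference was 1.69 for Trem2 and 1.90 for Krt19. Among markers above background in some control livers, Lgals3, a macrophage lectin, rose by 3.65 and Timp1, a protease inhibitor of stellate cells, by 3.68. Dcn, a matrix proteoglycan, rose by 4.34 and Epcam, a bile duct surface protein, by 2.67. The probe of Dcn was above background on 2 of 5 control arrays, those of Timp1 and Epcam on 4 of 5. In the authors' table Dcn was 1.85, Timp1 2.53 and Epcam 1.22, and all passed. Lyve1, of sinusoidal endothelium, rose by 1.20, but was 0.62 with normexp and did not pass there (limma adjusted p = 0.0566). Kdr, the other endothelial marker tested, differed by -0.06 and did not pass (limma adjusted p = 0.816). Cd3g and Zap70, of T cells, passed the test but reversed with normexp. Ahsp, of red cell precursors, rose by 2.85. Alas2 rose by 1.67. Only 1 of 5 control livers had a signal above background for either gene. With normexp they were 0.99 and 0.06 and neither passed, and Alas2 was 0.44 in the authors' table and did not pass there. Lrp2, the 1 renal tubule marker tested, fell by 1.21, and did not pass with spike-in scaling (-0.55) or in the authors' table (-0.24).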
